A study of Mus musculus with 2 samples.

Results

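The replication-dependent histone genes of the mouse lie in 4 clusters, and their symbols begin with Hist1h, Hist2h, Hist3h or Hist4h. All 67 gene rows with such a symbol, of 31053 gene rows in all, were followed in B cells isolated from hearts. They comprised 6 linker histone genes of the H1 family and 61 core histone genes, of which 18 encode H2A, 18 encode H2B, 12 encode H3 and 13 encode H4. On GRCm38, 54 of the genes lie on chromosome 13 between 21715763 and 23934851, 10 on chromosome 3, 2 on chromosome 11 and 1 on chromosome 6. Each of the 67 is annotated as protein coding, and 62 have a single exon. The cells came from wild-type mice of the C57BL6/J strain at 2 ages, sorted as CD45+ B cells on the same day after the same digestion. The neonatal library held cells of 6 mice of 2 weeks, of mixed sex, and its title gives 15 days. The adult library held cells of 6 male mice of 8 weeks, and for each age the hearts were pooled in 2 tubes of 3. With 1 library per age, age, sex and library cannot be told apart, and no difference had a replicate check. The study reports that the main B cell subset of the heart differs between these ages. Cells were not divided by subset for the comparison of ages, and the part of subset in it was not tested.

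Core histones form the octamer around which DNA is wound, and linker histones bind the DNA where it enters and leaves this particle. Most of the genes in the clusters are transcribed while DNA is copied, so that new chromatin can be packed. Their mRNAs are cut just after a short stem-loop, which is held by the stem-loop binding protein Slbp, and carry no poly(A) tail. Some of the genes are also known to give longer mRNAs that end in a poly(A) tail. The 3′ kit used here captures mRNA by its poly(A) tail and counts unique molecular identifiers (UMIs), each marking 1 captured molecule whatever its length.

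Droplets were kept as cells when they held at least 2000 gene UMIs, at most 10% mitochondrial UMIs and a UMI of Cd79a, which encodes a chain of the B cell receptor complex. This kept 2077 neonatal cells with 16403180 UMIs (median 6000 per cell) and 3611 adult cells with 34623240 UMIs (median 6131). Among B cell markers that the selection did not use, Cd79b, the partner chain of Cd79a, had 1799.5 CPM (UMIs of a gene per 1000000 UMIs of all genes) in neonatal and 1263 CPM in adult cells, and Ms4a1, which encodes the surface protein CD20, had 1347 and 1154 CPM. The B cell transcription factor genes Ebf1 and Pax5 were also present, Ebf1 at 1712 and 1203 CPM and Pax5 at 258 and 281 CPM. Macrophage markers summed to 90.4 CPM in neonatal and 16.3 CPM in adult cells, with all 6 genes detected at both ages. T cell markers summed to 10.1 and 12.7 CPM, with Cd4 at 0 in neonatal cells. Some barcodes with at least 500 UMIs occurred in both libraries. They marked 61 neonatal cells, of which 34 had a UMI of Mki67 or Top2a, and 45 adult cells. These 61 neonatal cells had a median of 30537 UMIs and held 21.8% of the neonatal histone UMIs, and the 45 adult cells had a median of 58990 UMIs and held 7.72%. Values without them are given for the summed linker and core levels by age, by Mki67 or Top2a and by cell cycle stage. Single genes, families, linker shares and depth classes are given with these cells included. Intervals below are exact 95% intervals on UMIs and cover counting error only.

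The stem-loop at the end of the mature histone mRNA is shown first. In a comparison below, genes are grouped by the length of transcript annotated after it, at a limit chosen after the values were seen. The stem-loop was searched in the GENCODE M21 transcripts (GRCm38) as 16 bases, a stem of 6 base pairs closed by a loop of 4. It was found in some transcript of 46 of the 67 genes, and in the transcript reaching farthest 3′, used for reference, of 45. Of the other protein-coding genes, 22 of 21834 (0.101%) held a match. In these lines, capitals mark the arms of the stem and lower case the loop.
The form of 25 genes, among them Hist1h1c, Hist1h1d, Hist1h1e, Hist3h2a and Hist1h2ap: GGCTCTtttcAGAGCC
The form of 7 genes, all of the H4 family, among them Hist4h4 and Hist1h4d: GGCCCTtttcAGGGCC
The form of 6 genes, among them Hist1h3c, Hist1h3e and Hist1h2bb: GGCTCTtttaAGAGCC
The remaining 7 genes had 5 other forms. The transcripts of 21 genes, among them Hist1h1b and Hist1h1a, held no match, which says only that these letters are absent from the annotated transcripts.

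Upstream sequence is shown for 3 genes that stood far apart in the comparison of cycling with other cells described below. Hist1h1b and Hist1h3c were many times higher in cells with a cycling marker, and Hist1h1c was not. The sequences are from RefSeq on GRCm38.p6, written 5′ to 3′ on the strand of the gene and ending before its start as annotated in GENCODE. Capitals mark the TATA box, searched as TATAAA, and the box whose letters are CCAAT, on either strand. Other spellings of these boxes were not searched and are not marked, so a stretch without capitals does not show that a box is absent.
Hist1h1b, chr13:21780626-21780875, minus strand: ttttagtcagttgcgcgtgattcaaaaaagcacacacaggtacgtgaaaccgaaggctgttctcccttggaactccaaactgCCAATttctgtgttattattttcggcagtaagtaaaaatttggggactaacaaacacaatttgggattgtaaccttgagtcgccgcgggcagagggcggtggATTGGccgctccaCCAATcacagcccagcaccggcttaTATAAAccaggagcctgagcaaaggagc
Hist1h3c, chr13:23745603-23745771, minus strand: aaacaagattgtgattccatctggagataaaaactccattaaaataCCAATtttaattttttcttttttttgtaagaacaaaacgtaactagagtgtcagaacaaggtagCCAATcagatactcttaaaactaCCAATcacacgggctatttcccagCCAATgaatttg
Hist1h1c, chr13:23738557-23738806, plus strand: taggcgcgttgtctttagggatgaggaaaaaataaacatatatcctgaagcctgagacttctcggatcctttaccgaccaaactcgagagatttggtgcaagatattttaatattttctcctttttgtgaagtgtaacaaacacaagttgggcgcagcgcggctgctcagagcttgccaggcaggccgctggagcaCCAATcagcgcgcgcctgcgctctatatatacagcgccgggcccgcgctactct
The upstream sequence of Hist1h1b held 1 TATAAA and 3 CCAAT, that of Hist1h3c 4 CCAAT and that of Hist1h1c 1 CCAAT. The sequence of Hist1h3c has 169 bases and the others have 250, so the counts cover unlike lengths. The last CCAAT of Hist1h3c lies 93 bases before the RefSeq start, so its printed stretch stops short of that start. Over the promoters of all genes in the RefSeq set, from 250 bases before to 50 bases after the start, CCAAT occurred in 41.1%, and it occurred in 6 of 6 linker and 47 of 56 core histone promoters. TATAAA occurred in 15.7% of all promoters, in 4 of 6 linker and in 31 of 56 core promoters. The octamer ATTTGCAT, known from H2B promoters, occurred in 1.97% of all promoters, in 0 linker and in 14 core promoters. These 14 belong to H2A as well as H2B genes. Some of the genes lie head to head, such as Hist1h2ah and Hist1h2bk, so a site can be counted for both. No motif contains another, both strands were searched, and 62 of the 67 genes had a promoter in the set.

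Histone transcripts were more abundant in the adult library, and more so for the linker than for the core genes. Linker genes summed to 228 CPM (3737 UMIs) in neonatal and 443 CPM (15347 UMIs) in adult cells, a log2 ratio of 0.96 (95% interval 0.91 to 1.01). Core genes summed to 550 CPM (9027 UMIs) and 740 CPM (25604 UMIs), a log2 ratio of 0.43 (0.39 to 0.46). Among core families, H2B had the largest ratio at 0.86 (0.77 to 0.94), from 91.5 to 166 CPM. H4 followed at 0.50 (0.42 to 0.57), H2A at 0.28 (0.23 to 0.33) and H3 at 0.15 (0.04 to 0.26). Linker genes gave 29.3% of histone UMIs in neonatal cells (28.5 to 30.1%) and 37.5% in adult cells (37.0 to 37.9%), a log2 odds ratio of 0.53 (0.47 to 0.60). As a ratio within histone UMIs, this share needs no scaling by the total UMIs of a library. The median log2 ratio over the 10703 genes with at least 50 UMIs was -0.13, and after scaling by the median of ratios the linker ratio was 1.09 and the core ratio 0.56.

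The age difference was also measured in narrower selections of cells. In cells without Mki67 or Top2a, the log2 ratio was 1.16 (1.10 to 1.22) for linker and 0.68 (0.64 to 0.72) for core genes. Without the barcodes present in both libraries the ratios were 1.11 and 0.59, and without cells holding at least 2 UMIs of macrophage, T cell or erythroid markers they were 1.09 and 0.54. Droplets with few UMIs, taken as free RNA, held 235 linker CPM and 573 core CPM in the neonatal library and 500.4 linker CPM and 816 core CPM in the adult library, near the levels of the cells of the same library. With the free RNA of such a droplet alone, 0.426% of neonatal and 1.52% of adult cells, thinned to 2000 UMIs each, would have a linker UMI. A linker UMI was present in 30.5% of thinned neonatal cells (28.5 to 32.5%) and 54.3% of thinned adult cells (52.7 to 55.9%), and as sequenced in 61.1% and 84.2%. A core UMI was present in 57.2% (55.0 to 59.3%) and 72.8% (71.4 to 74.3%) of thinned cells, where free RNA would give 1.03% and 2.47%.

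Of the 67 genes, 45 had at least 50 UMIs over both libraries, 18 had between 2 and 41 UMIs, and 4 had none (Hist1h2ah, Hist1h2bq, Hist1h2ba and Hist1h2aa). Hist1h2bq shares 100% and Hist1h2ah 97.9% of the 60-base words of its last 300 bases with other genes, so their lack of UMIs does not show absence. This share was 100% in Hist2h2aa1 and Hist2h3c1, 99.2% in Hist1h2ai and 94.6% in Hist1h2bn. It was 88.4% in Hist2h3b and 79.7% in Hist1h2an, and the UMIs of these genes are uncertain too. A difference of at least 2-fold was reached by 11 of the 45 with the higher level in adult cells, where 3.25% of all genes at this count did so, and by 2 with the lower level in adult cells, against 3.96% of all genes. Over these 45 genes the log2 ratio had a median of 0.52. In cells without Mki67 or Top2a, 17 of the 45 were at least 2-fold higher in adult cells, against 3.73% of all genes, and 1 was lower, against 4.43%. The plot of levels by age shows each of them.

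**Figure D1:**
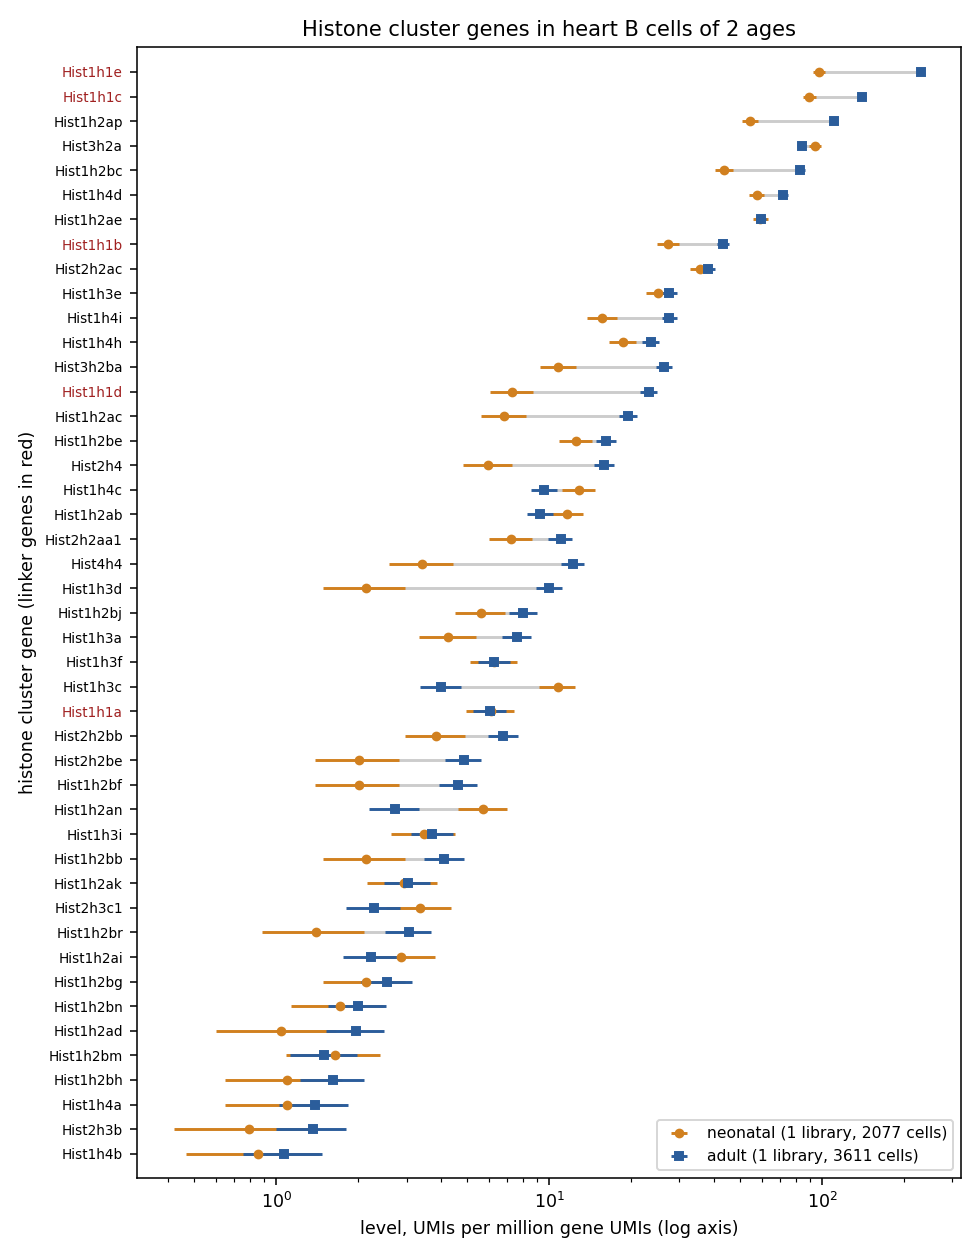
Level of each of the 45 histone cluster genes with at least 50 UMIs, in CPM on a log axis, in neonatal (circles) and adult (squares) heart B cells. Bars are exact 95% Poisson intervals within 1 library per age, and linker genes are named in red. Hist1h1e and Hist1h1c head the list, and Hist1h3c and Hist1h2an are higher in neonatal cells, Hist1h3c on UMIs of 20 neonatal and 25 adult cells.

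The 5 linker genes with at least 50 UMIs spanned a wide range of levels. Hist1h1e had 97.2 CPM (1595 UMIs) in neonatal and 230 CPM (7972 UMIs) in adult cells, a log2 ratio of 1.24 (1.17 to 1.32), and gave 51.9% of adult linker UMIs. Hist1h1c had 89.9 and 140 CPM, a ratio of 0.64 (0.56 to 0.73). Hist1h1b had 27.3 and 43.2 CPM, a ratio of 0.66 (0.51 to 0.82). Each of these somatic H1 genes was thus higher in the adult library. Hist1h1d had the largest ratio of the linker genes, 1.66 (1.38 to 1.95), from 7.32 to 23.1 CPM. Hist1h1a did not differ beyond counting error, at 6.10 and 6.07 CPM (log2 ratio -0.01, -0.36 to 0.35). Hist1h1t, the testis-specific linker gene, had 3 UMIs in all. The 3′ end of Hist1h1e lies within the annotated span of Hist1h2be on the same strand, and all of its last 300 bases are shared with other transcripts, so its UMIs are uncertain. Without Hist1h1e the linker ratio was 0.71, and the linker share of histone UMIs was 19.2% in neonatal and 22.4% in adult cells.

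Among the H2A genes, Hist1h2ap and Hist1h2ac were at least 2-fold higher in adult cells. Hist1h2ap had 54.4 CPM in neonatal and 110 CPM in adult cells (log2 ratio 1.02, 0.91 to 1.12), and its last 300 bases are also those of other genes such as Hist1h2ao. Hist1h2ac had 6.83 and 19.4 CPM (1.51, 1.22 to 1.81). Hist1h2an was the H2A gene at least 2-fold higher in neonatal cells, with 5.73 and 2.71 CPM (-1.08, -1.51 to -0.65). Hist2h2aa1 (0.60) and Hist1h2ad (0.92) had ratios whose intervals lay above 0, and Hist1h2ab (-0.33) and Hist3h2a (-0.16) ratios whose intervals lay below 0. The intervals of Hist1h2ai (-0.37), Hist1h2ae (0.01), Hist1h2ak (0.05) and Hist2h2ac (0.10) included 0. Hist3h2a, at 94.1 and 84.2 CPM, was the most abundant core gene of neonatal cells, and its call below 0 is of about the size of the median of all genes.

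Among the H2B genes, 9 of 13 had an interval above 0 and none had an interval below 0. At least 2-fold higher in adult cells were Hist3h2ba (10.8 and 26.3 CPM, log2 ratio 1.29), Hist2h2be (1.27), Hist1h2bf (1.21) and Hist1h2br (1.13). Hist1h2bc, the most abundant H2B gene, had 43.7 and 83.1 CPM, a ratio of 0.93 (0.81 to 1.05). Hist1h2bb (0.95), Hist2h2bb (0.82), Hist1h2bj (0.52) and Hist1h2be (0.37) also had intervals above 0. The intervals of Hist1h2bh (0.56), Hist1h2bg (0.25), Hist1h2bn (0.22) and Hist1h2bm (-0.13) included 0, at levels of at most 2.54 CPM.

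The H3 genes held the most extreme ratios of all families. Hist1h3d had 2.13 CPM (35 UMIs) in neonatal and 9.99 CPM (346 UMIs) in adult cells, a log2 ratio of 2.23 (1.72 to 2.77). Hist1h3c ran the other way, with 10.7 CPM (176 UMIs) and 4.01 CPM (139 UMIs), a ratio of -1.42 (-1.75 to -1.09). Its UMIs lay in 20 neonatal and 25 adult cells, and 41 of the neonatal UMIs in a single cell. Cells with a UMI of Mki67 or Top2a held 97.7% of the neonatal and 97.1% of the adult UMIs of this gene. In the other cells it had 4 UMIs at each age, a ratio of -1.01 whose interval of -3.43 to 1.42 included 0. Hist1h3a had a ratio of 0.84 (0.45 to 1.24) and Hist2h3c1 of -0.56 (-1.07 to -0.03). The intervals of Hist1h3e (0.14), Hist1h3f (0.00), Hist1h3i (0.10) and Hist2h3b (0.78) included 0, and the ends of Hist1h3e and Hist1h3f are shared, so their UMIs could be split between them. Among H4 genes, Hist4h4 (3.41 and 12.2 CPM, ratio 1.84) and Hist2h4 (5.97 and 15.8 CPM, ratio 1.41) were at least 2-fold higher in adult cells. Hist1h4i (0.82), Hist1h4h (0.34) and Hist1h4d (0.32) had intervals above 0, and Hist1h4c (-0.42) an interval below 0. Those of Hist1h4a (0.34) and Hist1h4b (0.32) included 0. The encoded proteins of many genes within a family are nearly the same, so these counts follow genes and not proteins.

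Mki67 and Top2a are transcribed in dividing cells, and a UMI of either marked 186 neonatal cells (8.96%) and 356 adult cells (9.86%). These cells were deeper than the others, with a median of 10179.5 against 5903 UMIs in the neonatal and 14311.5 against 5634 UMIs in the adult library. Counted as sequenced, histone levels were higher in the marked cells, with a larger ratio in the neonatal than in the adult cells. This difference between the ages was not tested. After thinning, the adult linker levels with and without a marker were nearly equal, as given below. In neonatal cells, linker genes had 405 CPM with and 192 CPM without a marker (log2 ratio 1.08, 0.97 to 1.18) and core genes 1107 and 439 CPM (1.33, 1.27 to 1.40). In adult cells, linker genes had 493 and 430 CPM (0.20, 0.14 to 0.25) and core genes 875 and 704 CPM (0.31, 0.27 to 0.35). Over all marked cells, linker genes gave a smaller share of histone UMIs than over those without a marker, with 26.8% against 30.5% in neonatal cells and 36.04% against 37.9% in adult cells (log2 odds ratios -0.26, -0.38 to -0.14, and -0.12, -0.19 to -0.05). Within the marked neonatal cells, those with more S phase than G2/M UMIs, a division described below, had a linker share of 33.8% (31.3 to 36.4%) and those with more G2/M UMIs 22.9% (21.4 to 24.6%), a log2 odds ratio of 0.78 (0.57 to 0.99). In adult cells the shares were 35.4% and 36.4% (-0.07, -0.19 to 0.06). By family, the neonatal ratio was 1.64 for H2A, 1.58 for H3, 0.96 for H4 and 0.59 for H2B. The adult ratio was 0.63 for H2A, 0.51 for H3, -0.07 for H4 (interval including 0) and -0.13 for H2B (-0.22 to -0.03).

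How the cycling cells were chosen changed these ratios. The neonatal values were 0.67 for linker and 0.94 for core genes without barcodes present in both libraries, and 0.52 and 0.80 without the 2% of cells with most UMIs. The adult values were 0.22 and 0.32 without the shared barcodes. After thinning every cell to 2000 UMIs they were -0.016 for linker and 0.11 for core genes in adult and 0.77 and 0.94 in neonatal cells. With a UMI of both Mki67 and Top2a required, the ratios were 2.20 and 2.60 in neonatal and 1.28 and 1.47 in adult cells. With a marker UMI still present after thinning, they were 1.85 and 2.18, and 1.41 and 1.52. Other gene lists moved with the markers too. The 5 plasma cell genes summed to 803 CPM with and 244 CPM without a marker in neonatal cells, and to 593 and 157 CPM in adult cells. The 8 B1 cell genes summed to 2183 and 998 CPM in neonatal and to 1105 and 844 CPM in adult cells, with all genes of both lists detected. Macrophage markers had 100.6 and 88.4 CPM in neonatal and 26.9 and 13.6 CPM in adult cells. The part of these lists in the histone difference was not tested. After thinning, a core UMI was present in 52.7% of neonatal cells with and 57.6% of those without a marker, and in 71.6% and 73.0% of adult cells. At this equal depth, the share of cells with a core UMI was thus not higher among marked cells.

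The single genes were compared with the first choice of cells alone, a UMI of either marker as sequenced. The cells were not thinned for this, so the greater depth of marked cells was not evened out. By this choice the genes split into those that followed the markers at both ages and those that did not. Of the 45 genes, 20 were at least 2-fold higher in marked neonatal cells, against 4.91% of all genes, and 10 in marked adult cells, against 3.23%. None was 2-fold lower, against 3.19% of all genes in neonatal and 0.926% in adult cells. The median of the 45 genes was 0.94 in neonatal and 0.02 in adult cells, where the median over all genes was 0.00 and 0.05.

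**Figure D2:**
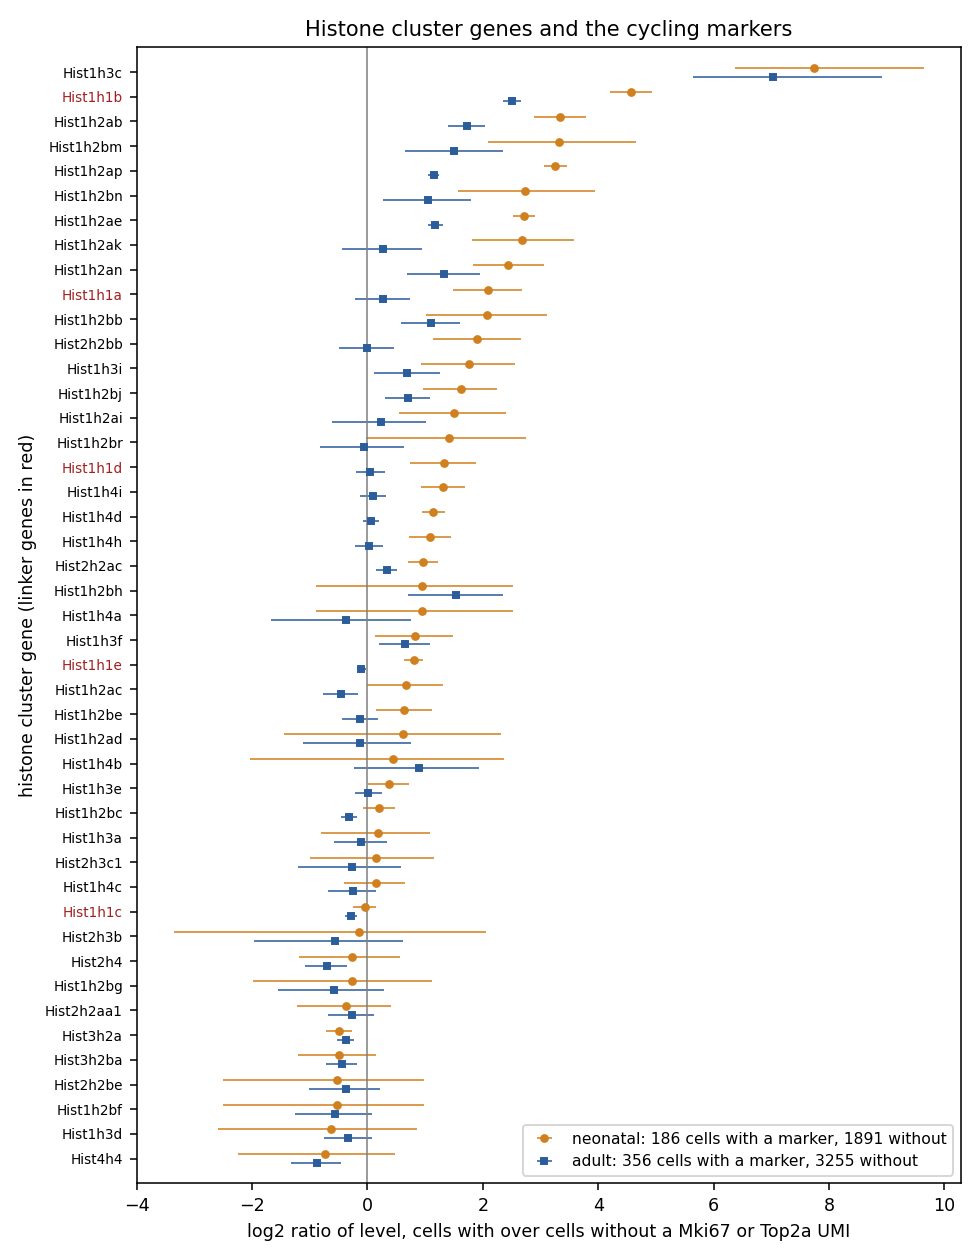
Log2 ratio of the level in cells with a UMI of Mki67 or Top2a over the level in cells without, for the 45 histone cluster genes, in the neonatal (circles) and adult (squares) library, ordered by the neonatal ratio. Bars are exact 95% intervals on UMIs, and linker genes are named in red. Hist1h3c and Hist1h1b lie far to the right at both ages, and Hist3h2a and Hist4h4 lie left of 0.

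Hist1h3c was found almost entirely in marked cells. In the neonatal library 172 of its UMIs were in cells with a marker and 4 in the others, a log2 ratio of 7.75 (6.37 to 9.64). In the adult library the counts were 135 and 4, a ratio of 7.03 (5.64 to 8.93). Few cells carried them, 20 neonatal and 25 adult cells in all, of which 16 and 21 had a marker. The richest of these cells held 41 of the neonatal UMIs and 24 of the adult UMIs. Hist1h3b, another H3 gene with too few UMIs for the list of 45, had 12 UMIs with and 0 without a marker in neonatal cells and 28 and 1 in adult cells. It was named after its values were seen.

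Among the linker genes, Hist1h1b separated the cells most. It had 135 CPM (370 UMIs) with and 5.71 CPM (78 UMIs) without a marker in neonatal cells, a log2 ratio of 4.57 (4.21 to 4.94). In adult cells it had 125 CPM (890 UMIs) and 22.1 CPM (607 UMIs), a ratio of 2.51 (2.36 to 2.66). The level in marked cells was similar at both ages, and the level in the other cells was higher in the adult library. Hist1h1a had a ratio of 2.09 (1.49 to 2.68) in neonatal and 0.28 (-0.21 to 0.74) in adult cells, and Hist1h1d 1.32 (0.74 to 1.89) and 0.05 (-0.20 to 0.30). Hist1h1e had 0.80 (0.64 to 0.97) and -0.10 (-0.18 to -0.02). Hist1h1c, the H1.2 gene, had -0.05 (-0.25 to 0.15) and -0.28 (-0.39 to -0.18), so the most abundant linker genes were those that followed the markers least.

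Among the core genes that were at least 2-fold higher at both ages, Hist1h2ap had ratios of 3.26 in neonatal and 1.15 in adult cells, and Hist1h2ae 2.72 and 1.18. Hist1h2ab had 3.33 and 1.72, Hist1h2bm 3.32 and 1.51, and Hist1h2an 2.44 and 1.33. Hist1h2bn (2.74 and 1.05) and Hist1h2bb (2.07 and 1.10) completed the genes past 2-fold in both libraries, beside Hist1h3c and Hist1h1b. Hist1h2bh passed in adult cells alone (0.94 and 1.54), and the difference of its ratios was not tested. Past 2-fold in neonatal cells alone were Hist1h2ak (2.68 and 0.28), Hist2h2bb (1.91 and -0.01), Hist1h3i (1.76 and 0.69), Hist1h2bj (1.62 and 0.70), Hist1h2ai (1.50 and 0.24), Hist1h2br (1.41 and -0.06), Hist1h4i (1.31 and 0.10), Hist1h4d (1.14 and 0.07) and Hist1h4h (1.09 and 0.03). In every one of these genes except Hist1h2br the neonatal interval lay above 0.

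The remaining core genes stayed within 2-fold at both ages. Hist3h2a had -0.49 (-0.72 to -0.27) in neonatal and -0.38 (-0.52 to -0.24) in adult cells, with 192 of 1544 and 483 of 2916 UMIs in marked cells. Hist4h4 (-0.74 and -0.88), Hist2h4 (-0.26 and -0.70), Hist3h2ba (-0.49 and -0.45), Hist1h2bc (0.20 and -0.32) and Hist1h2ac (0.67 and -0.47) had adult intervals below 0. Marked adult cells were deeper than the others. All of these genes, and Hist3h2a, were also lower in deep than in shallow adult cells, as given below. The part of depth in these ratios was not tested. Hist2h2ac (0.97 and 0.33) and Hist1h3f (0.83 and 0.66) had intervals above 0 at both ages. Hist1h2be (0.64 and -0.13) and Hist1h3e (0.37 and 0.02) had intervals above 0 in neonatal cells. The intervals of Hist1h2ad, Hist1h4a, Hist1h4b, Hist1h3a, Hist2h3c1, Hist1h4c, Hist2h3b, Hist1h2bg, Hist2h2aa1, Hist2h2be, Hist1h2bf and Hist1h3d included 0 in both libraries, with ratios between -0.63 and 0.94.

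The ratios were also set against the length of transcript annotated after the stem-loop. The genes were parted at 150 bases, a limit chosen after the values had been seen, with Hist1h2ae at 151 bases just above it and Hist1h4a at 108 bases the next below. In the 22 genes with a long end, which gave 66.5% of all histone UMIs, the summed log2 ratio of marked over other cells was 0.74 (0.66 to 0.81) in neonatal and -0.04 in adult cells, with an interval from -0.09 to just below 0. In the 23 genes with a short end, which gave 19.7% of UMIs, it was 2.26 (2.15 to 2.37) and 0.86 (0.79 to 0.93). In the 22 genes whose transcript of reference held no stem-loop, with 13.8% of UMIs, it was 1.95 (1.81 to 2.09) and 0.74 (0.65 to 0.82). The summed ratios lean on the most abundant genes, and gene by gene the classes overlapped. The median ratio of the genes with at least 50 UMIs was 0.37 in neonatal and -0.26 in adult cells for long ends, with 4 and 2 of 19 past 2-fold. It was 1.03 and 0.51 for short ends, with 7 and 5 of 14 past 2-fold, and 1.83 and 0.26 without a stem-loop, with 9 and 3 of 12. Among long ends Hist1h2ae, Hist1h1d, Hist1h4i and Hist1h4d passed 2-fold in neonatal and Hist1h2ae and Hist1h2bh in adult cells, while Hist1h2bf and Hist2h2aa1 with short ends and Hist1h2bc, Hist2h2be and Hist2h3b without a stem-loop had low ratios at both ages. A poly(A) signal, spelled AATAAA or, as its most common variant, ATTAAA, lay in the last 50 bases of 11 long, 2 short and 3 of the other transcripts. Reads that lie beyond the annotated end of a gene are not counted for it, and the part of this in the levels was not tested.

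**Figure D3:**
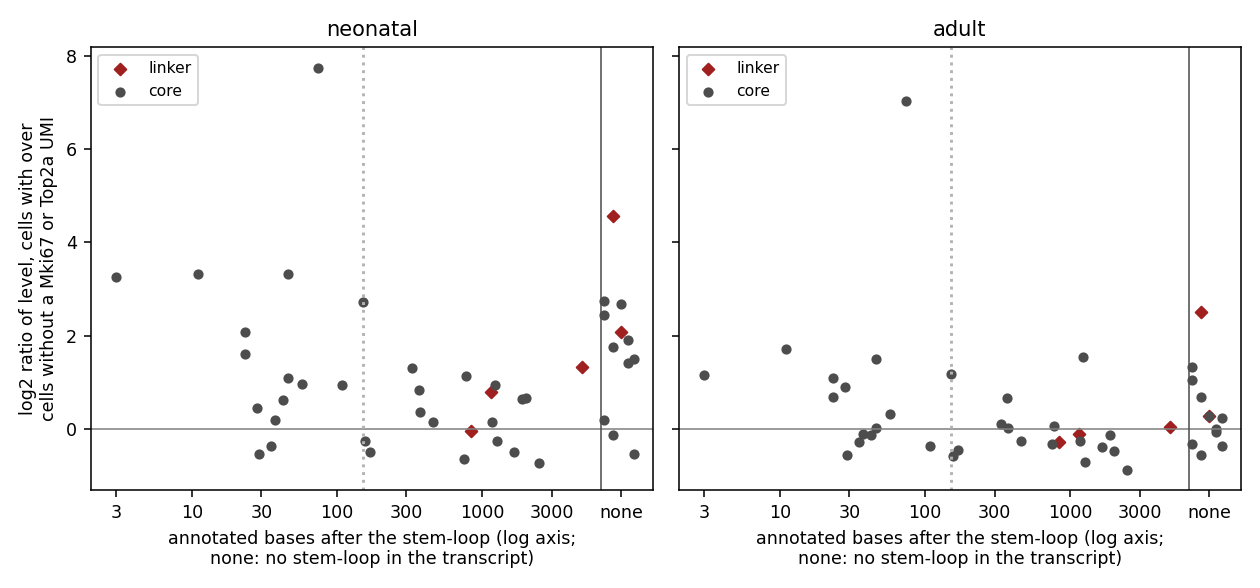
Log2 ratio of cells with over cells without a Mki67 or Top2a UMI, for the histone cluster genes with at least 50 UMIs, against the bases annotated after the stem-loop on a log axis, in the neonatal (left) and adult (right) library. Genes without a stem-loop in the transcript of reference stand at the right of the vertical line, and the dotted line marks 150 bases. Diamonds are linker and circles core genes, and the highest point at both ages is Hist1h3c with a short end.

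The marked cells were divided by whether they held more UMIs of a list of 22 S phase genes or of a list of 20 G2/M genes. S phase is the stage of DNA synthesis and G2/M the stage before and during division. Cells are called S phase or G2/M cells below by the larger count alone. The smallest difference was enough, so the groups are not established stages. In neonatal cells, 107 held more S phase and 60 more G2/M UMIs, with medians of 10547 and 10179.5 gene UMIs. In adult cells the numbers were 202 and 111, with medians of 17674 and 14574 gene UMIs, and 19 neonatal and 43 adult cells were tied and left out. Levels of captured histone mRNA were higher in the cells with more G2/M UMIs. The kit captures mRNA by its poly(A) tail, so these levels do not give the histone mRNA without a tail. In neonatal cells, core genes had 532 CPM in the S phase and 2448 CPM in the G2/M cells, a log2 ratio of 2.20 (2.09 to 2.32), and linker genes 272 and 729 CPM (1.42, 1.25 to 1.60). In adult cells, core genes had 726 and 1255 CPM (0.79, 0.72 to 0.86) and linker genes 397 and 719 CPM (0.86, 0.76 to 0.96). The S phase cells of the adult library, so defined, lay near the level of all adult cells without a marker, 704 CPM for core and 430 CPM for linker genes. These unmarked cells were shallower, with a median of 5634 gene UMIs. Deep adult cells without a marker, a class described below, had 585 CPM for core and 351 CPM for linker genes after thinning. The adult S phase cells, which were not thinned, lay above these levels. The part of depth in this comparison was not tested. Whether all of the adult S phase cells were copying DNA was not tested.

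**Figure D4:**
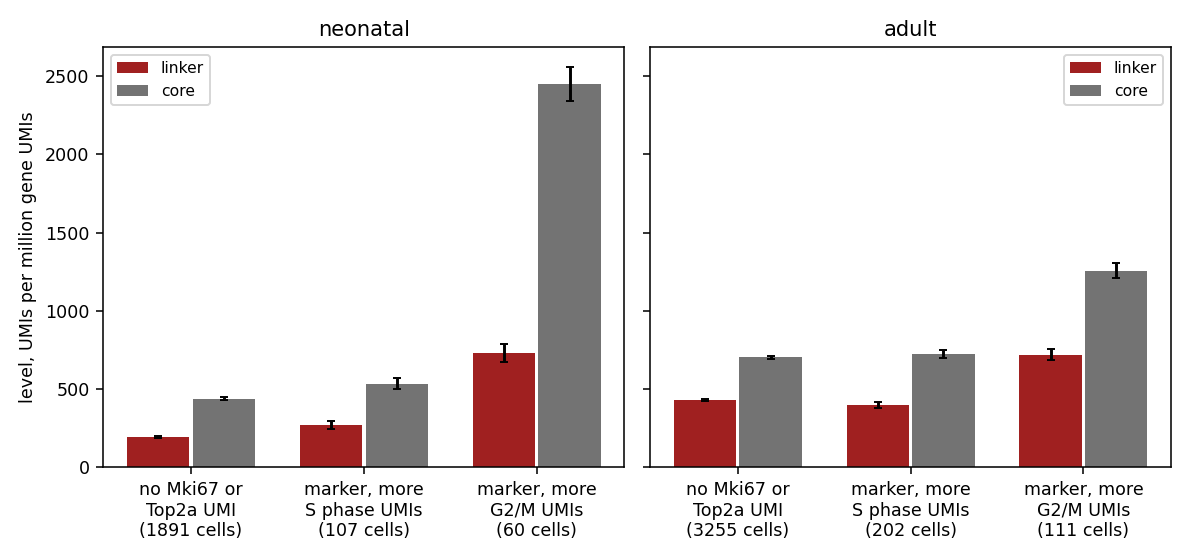
Summed level of linker and core histone cluster genes, in CPM, in cells without a Mki67 or Top2a UMI and in cells with one that held more S phase or more G2/M list UMIs, in the neonatal (left) and adult (right) library. Error bars are exact 95% Poisson intervals within 1 library. The bars for cells with more G2/M UMIs are the highest at both ages, at 2448 CPM for neonatal core genes.

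The order held without cells in doubt. Without barcodes present in both libraries, the ratio of G2/M over S phase cells was 2.09 for core and 1.20 for linker genes in neonatal cells and 0.66 and 0.69 in adult cells. Without the cell with most histone UMIs, which held 509 neonatal or 572 adult UMIs of these genes, it was 1.96 and 1.24, and 0.94 and 1.03. Macrophage markers were also higher in the neonatal G2/M cells (187 against 12.4 CPM), and without cells holding at least 2 UMIs of macrophage, T cell or erythroid markers the neonatal ratio was 2.44 for core and 1.89 for linker genes. Plasma cell markers were higher in the adult G2/M cells (704 against 136 CPM), and their part was not tested. Of the 37 genes with a ratio in neonatal cells, 32 were at least 2-fold lower in the S phase than in the G2/M cells, against 6.49% of all genes, and 13 of 45 were so in adult cells, against 3.46%. In the other direction, 1 neonatal and 0 adult genes passed 2-fold, against 6.33% and 3.65% of all genes. Hist1h3c had 9.46 CPM (16 UMIs) in neonatal S phase and 186 CPM (156 UMIs) in neonatal G2/M cells, and 9.78 and 43.2 CPM in the adult cells. Hist1h1b had 87.5 and 263 CPM in neonatal and 92.9 and 219 CPM in adult cells, so it was high in both groups. Hist1h1c, which was not higher in marked cells as a whole, had 62.6 and 141 CPM in neonatal and 95.3 and 163 CPM in adult cells. Hist3h2a did not differ, with 71.5 and 65.5 CPM in neonatal and 67.6 and 66.4 CPM in adult cells.

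Cells without a marker but with UMIs of at least 3 of the S phase genes after thinning were compared with cells that had no marker and no S phase UMI. In the 45 such neonatal cells core genes had 472 CPM against 437 CPM (log2 ratio 0.11, -0.15 to 0.36), and in the 87 adult cells 738 against 682 CPM (0.11, -0.02 to 0.24). Linker genes had 139 against 193 CPM in neonatal (-0.48, -0.97 to -0.02) and 433 against 410 CPM in adult cells (0.08, -0.09 to 0.25). In these cells the ratios of single genes rest on 136 core and 40 linker UMIs at the neonatal and 509 core and 299 linker UMIs at the adult age, and are not given.

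Histone UMIs, counted as sequenced, were unevenly spread over cells. The cells differed widely in depth, and the part of depth in this spread was not tested. In the neonatal library the 1% of cells with most core histone UMIs (21 cells) held 25.7% of them, and in the adult library the corresponding 37 cells held 14.3%. The median cell had 3 core and 1 linker UMI in the neonatal library and 5 core and 3 linker UMIs in the adult library. Hist1h1b was concentrated more, with 83.9% of neonatal and 57.0% of adult UMIs in the 1% of cells richest in it. Hist1h1c and Hist3h2a were spread widely, with 12.5% and 8.68% of neonatal UMIs in such cells. The variance of the count per cell was 31.8 times its mean for Hist1h1b and 1.74 times for Hist3h2a in neonatal cells. The share in the richest cells also depends on how many UMIs a gene has, 448 for Hist1h1b and 1544 for Hist3h2a here. Hist2h2be, with 33 neonatal UMIs in 33 cells, reached 63.6%.

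Shallow adult cells of 2000 to 5000 UMIs (1472 cells, median 4004.5) were compared with deep adult cells of over 10000 UMIs (1044 cells, median 15461), and the 1095 adult cells between them entered neither group. Each cell was thinned at random to 2000 UMIs before the comparison. At this equal depth histone levels were higher in the shallow cells. Linker genes had 636 CPM (1872 UMIs) in shallow and 388 CPM (811 UMIs) in deep cells, a log2 ratio of 0.71 (0.59 to 0.83). Core genes had 995 CPM (2929 UMIs) and 656 CPM (1370 UMIs), a ratio of 0.60 (0.51 to 0.69). The linker share of histone UMIs was 39.0% in shallow (37.6 to 40.4%) and 37.2% in deep cells (35.2 to 39.3%), a log2 odds ratio of 0.11 whose interval of -0.04 to 0.26 included 0. In the neonatal library it was 32.6% in shallow and 27.6% in deep cells, a log2 odds ratio of 0.34 (0.012 to 0.68), and without marked cells 32.4% and 29.0% (0.23, -0.20 to 0.67). All core families were higher in shallow cells, with ratios of 1.05 for H3, 0.66 for H4, 0.64 for H2B and 0.47 for H2A.

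A Mki67 or Top2a UMI was found before thinning in 22.4% of deep and 3.67% of shallow adult cells. After thinning, such a UMI was left in 4.69% of deep and 1.97% of shallow adult cells. Markers were called before thinning, so a deep cell had more UMIs in which a marker could be found. Leaving out marked cells took 234 deep and 54 shallow adult cells, and 94 deep and 18 shallow neonatal cells. Every depth comparison without marked cells has this imbalance, and its part in the ratios was not tested. Without the marked cells the adult ratio was 0.86 (0.73 to 1.0) for linker and 0.77 (0.66 to 0.87) for core genes. In the neonatal library, with 546 shallow and 375 deep cells, the ratio was 0.25 (-0.03 to 0.53) for linker and -0.09 (-0.27 to 0.08) for core genes, and without marked cells 0.84 (0.49 to 1.22) and 0.61 (0.38 to 0.85). Over finer classes of depth, the adult level after thinning was highest in cells of 3000 to 4000 UMIs, at 718 CPM for linker and 1079 CPM for core genes. It was lowest in cells of 10000 to 15000 UMIs, at 354 and 583 CPM.

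**Figure D5:**
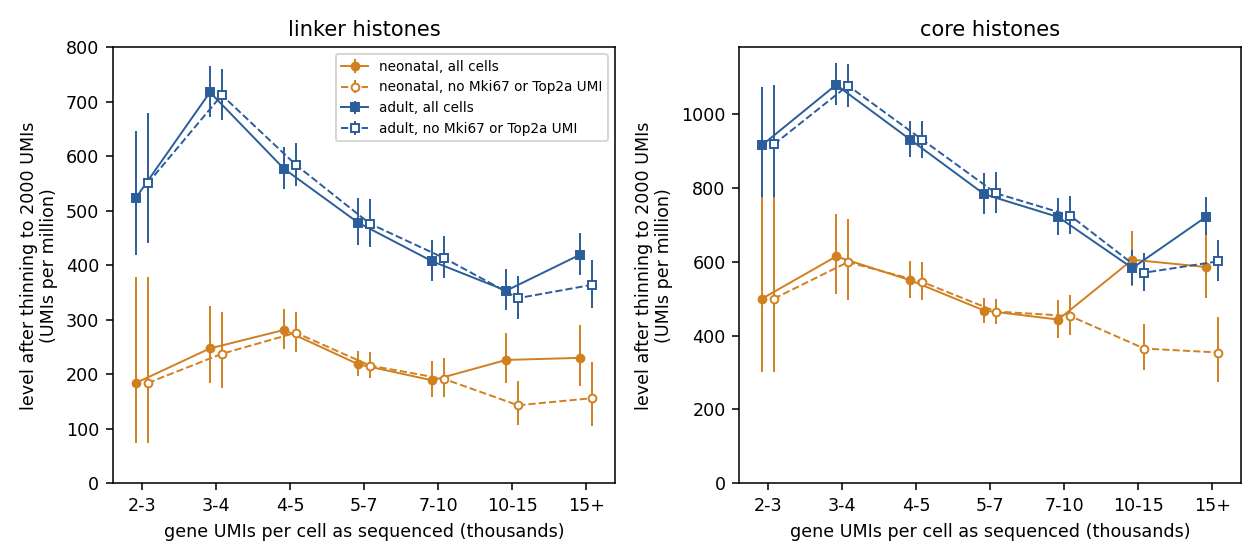
Summed level of linker (left) and core (right) histone cluster genes after each cell was thinned to 2000 UMIs, by the gene UMIs of the cell as sequenced, for all cells (filled) and cells without a Mki67 or Top2a UMI (open). Error bars are exact 95% Poisson intervals within 1 library, and the lowest neonatal class holds 19 cells. Adult levels peak in cells of 3000 to 4000 UMIs at 718 CPM for linker and 1079 CPM for core genes.

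Other lists differed between shallow and deep adult cells as well. The 8 B1 cell genes summed to 86.3 CPM in shallow and 1285 CPM in deep cells after thinning, the 6 follicular B cell genes to 4904 and 3016 CPM, and the 5 plasma cell genes to 121 and 280 CPM. Before thinning, all of these genes had UMIs in both groups. Among thinned cells without a UMI of the B1 list, 1287 shallow and 357 deep, the ratio was 0.49 (0.32 to 0.67) for linker and 0.43 (0.29 to 0.56) for core genes. With marked cells left out as well it was 0.72 (0.52 to 0.93) and 0.63 (0.47 to 0.79). A B1 UMI may be lost in thinning, so these cells are not free of B1 cells. Whether shallow cells held less mRNA in all, or lost more of it, cannot be told apart from these counts.

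Of 44 histone genes with a ratio, 13 were at least 2-fold higher in shallow adult cells, against 4.95% of all genes, and 1 was lower, against 7.43%. Their median was 0.62, where that of all genes was 0.06. Without marked cells 15 of 43 were at least 2-fold higher, against 5.56%, and none was lower, against 6.9%. In the neonatal library 4 of 32 were at least 2-fold higher, against 9.08%, and 6 lower, against 7.55%. Without marked neonatal cells 8 of 28 were higher, against 10.4%, and 0 lower, against 6.86%. The ratios were 0.92 for Hist1h1c (224 and 118 CPM), 0.80 for Hist1h1e (339 and 195 CPM), 0.38 for Hist1h1d and 1.04 for Hist1h1a, the last on 29 and 10 UMIs. Hist1h1b was lower in shallow cells (29.2 and 44.1 CPM, ratio -0.59, -1.03 to -0.15), and without marked cells it was higher (29.3 and 18.5 CPM, 0.66, 0.04 to 1.31). Hist1h3c had 0 UMIs in shallow and 10 in deep cells, which with 3 UMIs set for the former bounds the ratio at -2.23, and without marked cells it had none in either.

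Core genes at least 2-fold higher in shallow adult cells with at least 20 UMIs there were Hist1h3d (16.3 and 3.83 CPM, ratio 2.09), Hist1h2bf (2.03), Hist1h3a (1.55), Hist1h3e (1.32), Hist4h4 (1.32), Hist2h4 (1.31) and Hist3h2ba (1.28). Hist1h2ak (13 and 1 UMIs), Hist1h2bg (12 and 2), Hist1h2ad (14 and 3), Hist2h3c1 (17 and 4) and Hist1h2bn (9 and 3) passed 2-fold on few UMIs, and of these Hist1h2ak alone had an interval above 0 (0.47 to 8.61). Hist3h2a (0.69), Hist2h2ac (0.64), Hist1h4d (0.58), Hist1h4h (0.96), Hist2h2bb (0.98), Hist1h2ac (0.62), Hist1h2bc (0.42) and Hist1h2ae (0.36) were higher by less than 2-fold with intervals above 0. For Hist1h2ap (0.22) and Hist1h4i (-0.01), both with over 80 UMIs in shallow cells, the interval included 0, as it did for the remaining 16 core genes with a ratio, whose ratios lay between -0.50 and 0.87. Hist4h4, Hist2h4, Hist3h2ba and Hist1h3d were among the genes with large ratios of adult over neonatal cells too, and these comparisons share the adult cells.

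Genes outside the clusters with related tasks were read beside them. Most replacement histones are made throughout the cell cycle from polyadenylated mRNA. The 10 genes of the list used here, with Cenpa also on the G2/M list, summed to 8010 CPM in neonatal and 7421 CPM in adult cells. None of the 9 with at least 50 UMIs differed by 2-fold between the ages. Of all genes, 3.25% were 2-fold higher and 3.96% lower in adult cells, so 9 genes are too few to stand apart. H2afx (log2 ratio of marked over other cells 1.87 in neonatal and 1.18 in adult cells) and H2afz (1.25 and 1.02) were at least 2-fold higher in marked cells, while H3f3a (-0.30 and -0.17) and H3f3b (-0.15 and -0.31) were slightly lower. Of 19 genes for processing of histone mRNA and for histone chaperones, 3 were at least 2-fold higher in marked cells at both ages. They were the chaperone gene Asf1b (2.67 and 2.51) and the chromatin assembly factor genes Chaf1a (2.21 and 2.61) and Chaf1b (1.40 and 1.73). Of all genes, 4.91% were 2-fold higher in marked neonatal and 3.23% in marked adult cells, each age taken alone. Slbp, whose protein binds the stem-loop, had ratios of 0.24 (0.05 to 0.43) and 0.29 (0.17 to 0.40), and 87.9 CPM in neonatal and 96.7 CPM in adult cells.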

How the data were processed

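RNA was measured in heart B cells of 2 ages with the 10x Chromium 3′ kit, 1 library per age. The authors aligned reads to mm10 with Cell Ranger (version 3.0.2 per the file headers, a later version per the study's methods) and deposited unnormalized UMI counts, with empty droplets still among the barcodes. The 3 antibody rows were not used. Calculations used scipy 1.17.1, numpy 2.4.6 and pandas 2.3.3 under Python 3.11.15, and plots used matplotlib 3.10.9. UMIs were summed over cells and divided by all gene UMIs of those cells (CPM). Log2 ratios have exact conditional binomial intervals, levels exact Poisson intervals and shares exact Clopper-Pearson intervals, all at 95% and for counting error only. Since cells are not replicates and each age is 1 library, no p-value is given. The pooling of 6 mice does not allow mice to be told apart.

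Ratios were called at 2-fold among genes with at least 50 UMIs over the kept cells, a group with none was set to 3 UMIs, and no ratio was given where both groups had at most 3. No cluster gene counted here was called in a direction set by these 3 UMIs alone. Every cluster gene with at least 50 UMIs was to be named, and genes of other lists past 2-fold, up to 4 a list. Thinning drew 2000 UMIs per cell without replacement with a fixed seed. The sort excluded doublets per the labels, and none were removed here. Transcript ends, stem-loops and shared stretches (60-base words) came from GENCODE M21, promoters from RefSeq. Reference matches were made by gene identifier, which found all 67 genes. The protein sequences were not analysed here. The calculations were tested on simulated data. The genes and lists were chosen with earlier results of these data known. Alternatives for filters, depth, scaling, doubtful cells and the choice of cycling cells are described in the closing section. Those without Hist1h1e, without the cell with most histone UMIs, without B1 list UMIs and the checks of the S and G2/M split were added after the data were seen, as were the division by transcript end and the split by phase lists.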

Additional observations from a re-analysis of the deposited data

Results flagged for a closer look

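Histone UMIs also appeared outside the kept cells. Near-empty droplets held 235 linker and 573 core CPM in the neonatal library, and 500.4 linker and 816 core CPM in the adult library. Droplets over the mitochondrial limit held 214 linker and 455 core CPM in the neonatal and 521 linker and 774 core CPM in the adult library. The near-empty droplets served as the estimate of free RNA, the droplets over the limit entered no comparison, and no control without cells was at hand.

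Some features lay above other cells at one age and below them at the other. For marked over other cells, the neonatal log2 ratio exceeded the adult ratio by 0.72 for the H2B family (0.59 and -0.13) and by 0.91 for Hist1h1e (0.80 and -0.10). For shallow over deep cells, the neonatal minus the adult ratio was -1.22 for Hist1h2ae (-0.86 and 0.36) and -1.57 for Hist1h4d (-0.99 and 0.58). The differences were not tested, since each age is 1 library.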

How the results depend on the processing

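No paired analysis was possible because each age is 1 library and no test was run. Of 122 alternative values of the class levels and linker shares, 63 stayed within the counting interval of the reported value, 57 moved outside it and 2 changed sign, both for linker genes in marked adult cells. The linker and core ratios by age (reported 0.96 and 0.43) were 0.91 and 0.38 with a minimum of 4000 UMIs, 1.13 and 0.60 without the 2% of cells with most UMIs, 1.09 and 0.54 without cells holding 2 or more UMIs of other cell types, 1.11 and 0.59 without barcodes found in both libraries, 1.20 and 0.68 as a mean over cells, 1.14 and 0.69 after thinning to 2000 UMIs, 1.16 and 0.68 without marked cells, and 1.09 and 0.56 with median of ratios scaling. Without Hist1h1e the linker ratio was 0.71, and without the cell with most histone UMIs the core ratio was 0.47.

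For neonatal marked cells, linker and core ratios (reported 1.08 and 1.33) were 0.52 and 0.80 without the 2% of cells with most UMIs, 0.76 and 1.15 without cells holding UMIs of other cell types, 0.67 and 0.94 without shared barcodes, 0.73 and 0.92 as a mean over cells, 0.77 and 0.94 after thinning, 0.96 and 1.15 without the cell with most histone UMIs, 2.20 and 2.60 with both markers required, and 1.85 and 2.18 with a marker UMI left after thinning. The core ratio was 1.41 when no Cd79a UMI was required, and the linker ratio 1.26 without Hist1h1e. For adult marked cells (reported 0.20 and 0.31) the values were 0.27 and 0.38 with a minimum of 4000 UMIs, -0.030 and 0.051 as a mean over cells, -0.016 and 0.11 after thinning, 0.11 and 0.24 without the cell with most histone UMIs, 1.28 and 1.47 with both markers, and 1.41 and 1.52 with a marker UMI left after thinning. The adult core ratio was 0.25 without the 2% of cells with most UMIs and 0.27 with median of ratios scaling, and the linker ratio 0.49 without Hist1h1e. The cause of these changes was not tested.

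The ratios of shallow over deep adult cells (0.71 and 0.60) were 0.86 and 0.77 without marked cells, and the core ratio was 0.46 with deep cells taken over 15000 UMIs. The linker share of histone UMIs (29.3% and 37.5%) was 31.0% and 38.04% after thinning and 19.2% and 22.4% without Hist1h1e, and the neonatal share was 30.5% without marked cells. Genes of few UMIs have wide intervals, and a difference between mice or preparations lies outside every interval given.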
